A study of Mus musculus with 6 samples.

Results

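The 8 mature miRNAs described here come from 5 hairpins in 1 intron of the Clcn5 gene on the mouse X chromosome. They were followed through the brains of wild-type and Adar2-/- mice. Whether the intron holds further hairpins was not examined. The members were chosen by name, as the rows miR-532-5p, miR-532-3p, miR-188-5p, miR-362-5p, miR-362-3p, miR-501-5p, miR-501-3p and miR-500 of the read tables. They are 8 of the 1055 mature miRNAs listed, and all 8 are among the 399 with 100 or more reads in each of the 6 libraries. The study sequenced small RNA of 19 to 25 nucleotides from whole brain to find how the loss of ADAR2, an enzyme that converts adenosine to inosine in double-stranded RNA, alters the sequence and abundance of miRNAs. Each genotype was represented by 3 females, siblings from heterozygous crosses in the 129SV strain, killed at 5.5 months. The Adar2-/- animals were constitutive knockouts, so the loss was not limited to the brain or to adult life. Both genotypes were homozygous for the pre-edited allele Gria2 R/R, which rescues Adar2-/- mice from early death, so the controls are wild type at Adar2 only. Adar2 mRNA was not analysed here, and the counts offer no check of the genotypes.

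Clcn5 encodes an exchanger of chloride for protons in the membrane of endosomes and is best known from the proximal tubule of the kidney. miRNAs inside an intron are cut from the nascent host transcript as hairpins by Drosha and are then trimmed by Dicer to a duplex, from which the 5p or the 3p strand is loaded into Argonaute. Hairpins of 1 primary transcript are made together, but each is cut and each strand is retained with its own efficiency, so mature levels need not be equal. In neurons miR-188-5p has been described as a regulator of neuropilin-2 and miR-501-3p as a regulator of the AMPA receptor subunit Gria1. Clcn5 mRNA was not analysed here.

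On NCBIM37 (mm9) Clcn5 (ENSMUSG00000004317.8) occupies chrX:6730936-6896484 on the minus strand. Of its 5 annotated transcripts, 3 span the hairpins, and in each of these all 5 hairpins lie in the same intron of 103648 bp, chrX:6790137-6893784. The other 2 transcripts, Clcn5-001 and Clcn5-002, start downstream of the hairpins and hold none of them. In the direction of transcription the first hairpin is Mir532 (chrX:6825528-6825623) and the next is Mir188 (chrX:6825115-6825182), 345 bp further on. A gap of 5942 bp, the longest between neighbours among these 5, separates them from Mir362 (chrX:6819108-6819172). Mir501 (chrX:6818369-6818477) follows Mir362 after 630 bp, and Mir500 (chrX:6814809-6814900) is the last of the 5 after another 3468 bp. From end to end the 5 hairpins span 10815 bp.

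The mature sequences are shown because the miRNAs of this cluster resemble each other, which bears on how reads were assigned to them and on which targets they can share. They are RefSeq sequences from a table for GRCm38.p6, each found once in its hairpin on NCBIM37 and written 5′ to 3′ in the order of the hairpins, with the seed (bases 2 to 8) in capitals. Of the 8 members 6 were matched by name, and miR-188-3p, the other arm of Mir188, was matched too. miR-532-5p was not matched. The read tables call the Mir500 products miR-500 and miR-500* and name no arm, so both RefSeq arms are given and neither is assigned.
miR-532-3p: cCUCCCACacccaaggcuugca
miR-188-5p: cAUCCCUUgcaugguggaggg
miR-188-3p: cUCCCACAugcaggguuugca
miR-362-5p: aAUCCUUGgaaccuaggugugaau
miR-362-3p: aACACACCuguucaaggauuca
miR-501-5p: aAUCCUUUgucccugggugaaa
miR-501-3p: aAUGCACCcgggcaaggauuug
miR-500-5p: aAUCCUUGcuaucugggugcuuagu
miR-500-3p: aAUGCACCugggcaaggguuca

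The seed AUCCUUG was shared by miR-362-5p and miR-500-5p, and the seed AUGCACC by miR-501-3p and miR-500-3p. The seed of miR-501-5p, AUCCUUU, was found in no other mature miRNA of the table. miR-362-3p shares its seed, ACACACC, with miR-329-3p, which does not belong to this cluster. The seed of miR-188-5p, AUCCCUU, is also that of miR-7061-3p, which comes from none of these hairpins. All arms of Mir362, Mir501 and Mir500 begin with A, whereas the arms of Mir532 and Mir188 shown above begin with C. The most alike pair was miR-501-3p and miR-500-3p, equal at 18 of 22 positions and 4 edits apart. Reads had been mapped with about 2 mismatches allowed and shared hits were weighted, so an exchange of some reads between such members was not tested. Among the sequences shown, GC content was 63.6% in miR-532-3p and 61.9% in miR-188-5p and between 40.9% and 54.5% in the arms of the other 3 hairpins. Whole hairpins did not divide in this way. Their GC content was 49.0% for Mir532, 55.9% for Mir188, 46.2% for Mir362, 50.5% for Mir501 and 53.3% for Mir500.

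The libraries held between 12449633 and 23935544 mapped miRNA reads, and abundance is given as reads per 1000000 of these (RPM). Wild-type replicate 1 was the shallowest library and stood apart in the cluster, so results that rest on it are also given without it. The summed level of the 3 pituitary and endocrine markers was 7459 RPM in that library and 1289 to 4714 RPM in the other 5. Their log2 fold changes, Adar2-/- over wild type, were -4.09, 0.42 and 0.19, so the sum does not describe each marker. The summed level of 5 neuronal markers, 127172 to 159857 RPM in the other libraries, was 173598 RPM in wild-type replicate 1. The sum of the 3 oligodendrocyte markers was also highest there, at 1626 RPM against 1175 to 1502 RPM. Log2 fold changes ran from -0.25 to 0.98 among the neuronal markers and from -0.19 to 0.28 among the oligodendrocyte markers. These sums do not describe each marker either. For every list not yet named, wild-type replicate 1 lay within the range of the other 5 libraries. In Adar2-/- replicate 3 the 3 markers of sensory epithelium, pineal and retina summed to 19158 RPM, against 186903 RPM in Adar2-/- replicate 1, and the 5 epithelial markers to 738 RPM. No marker of the 10 lists was at 0 in every library, and the part of cell composition in the values of the cluster was not tested. Each library had its own lane, so lane and brain cannot be told apart. In whole brain, fewer cells of a type and less miRNA per cell cannot be told apart either. Reads are not independent molecules, so intervals on reads cover counting error only.

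Summed over the 8 members, the cluster gave 506, 560 and 547 RPM in the wild-type brains and 480, 567 and 588 RPM in the Adar2-/- brains, each in the order of replicates 1 to 3, which is kept below. It averaged 538 ± 27.8 RPM over the wild types and 545 ± 57.2 RPM over the mutants (SD, n = 3 each), and the genotypes overlapped. The makeup of the sum varied far more than its size. miR-532-5p supplied 26.2% to 58.8% of the reads of the cluster and miR-362-5p 12.3% to 41.4%. The lowest share of miR-532-5p and the highest share of miR-362-5p came from the same library, Adar2-/- replicate 1.

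miR-532-5p, from the first hairpin, was the most abundant member at 229 ± 62.3 RPM (SD, n = 6), rank 152 of 1055 by mean RPM. It stood at 298, 207 and 271 RPM in the wild-type brains and at 126, 266 and 208 RPM in the mutants. The lowest library was thus a mutant and the highest a wild type, with the other 4 in between and the genotypes overlapping. Its partner from the same hairpin, miR-532-3p, had 26.5, 12.6 and 13.7 RPM in wild type and 14.6, 15.6 and 21.1 RPM in Adar2-/-. miR-188-5p, from the next hairpin, had 30.8, 12.3 and 13.8 RPM in wild type and 11.9, 17.9 and 16.2 RPM in Adar2-/-. Wild-type replicate 1 was the highest library for all 3 members of these first hairpins.

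miR-362-5p was the second most abundant member at 130 ± 47.8 RPM (SD, n = 6), rank 182 of 1055. It had 62.4, 145 and 99.4 RPM in the wild-type brains and 199, 117 and 159 RPM in the mutants. The highest and the lowest library again differed in genotype, now with the mutant on top, and wild-type replicate 2 lay above Adar2-/- replicate 2. miR-362-3p, the other strand of the hairpin, had 14.1, 21.4 and 26.4 RPM in wild type and 15.9, 27.4 and 31.6 RPM in Adar2-/-. Its 2 lowest libraries were the first replicates of both genotypes.

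miR-501-5p reached 39.0, 86.3 and 74.0 RPM in the wild-type brains and 66.1, 62.5 and 81.1 RPM in the mutants. Leaving out wild-type replicate 1, its levels ran over a 1.38-fold range, the narrowest among the members together with miR-500. miR-501-3p, the other strand, had 21.1, 39.9 and 22.4 RPM in wild type and 21.1, 34.3 and 36.1 RPM in Adar2-/-. The genotypes overlapped for both strands. miR-500, from the last hairpin, had 14.8, 35.3 and 25.5 RPM in wild type and 26.2, 26.9 and 35.2 RPM in Adar2-/-. It too had its minimum in wild-type replicate 1, and its remaining 5 libraries also lay within 1.38-fold.

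**Figure D1:**
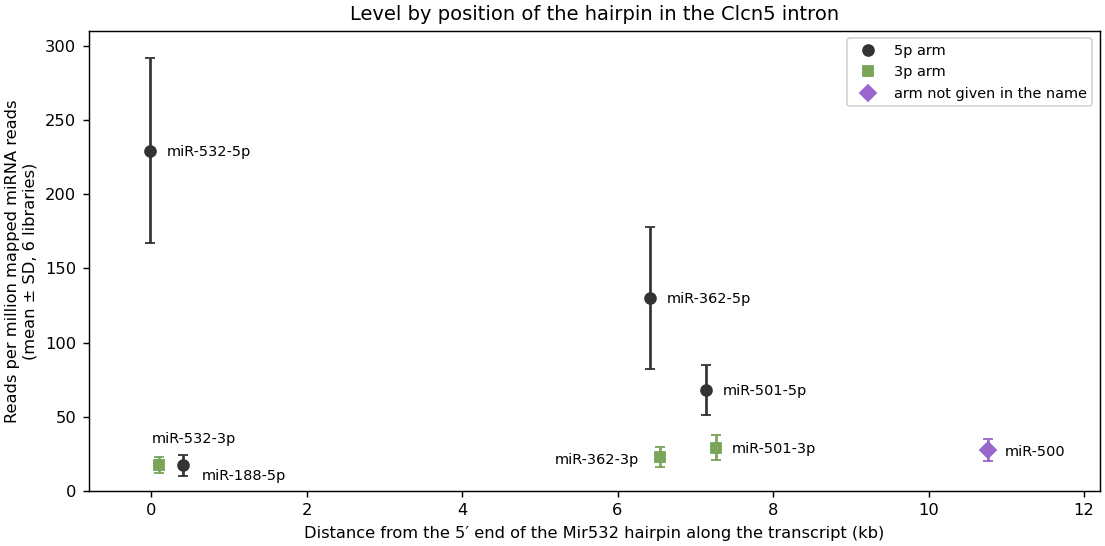
Mean RPM of each member (vertical axis, error bars SD over 6 libraries) against the distance of its hairpin from the 5′ end of Mir532 in kb along the transcript (horizontal axis), with arms of 1 hairpin set slightly apart. The 5p strands of Mir532, Mir362 and Mir501 stand at 229, 130 and 68.1 RPM, and the other 5 members lie between 17.2 and 29.1 RPM.

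**Figure D2:**
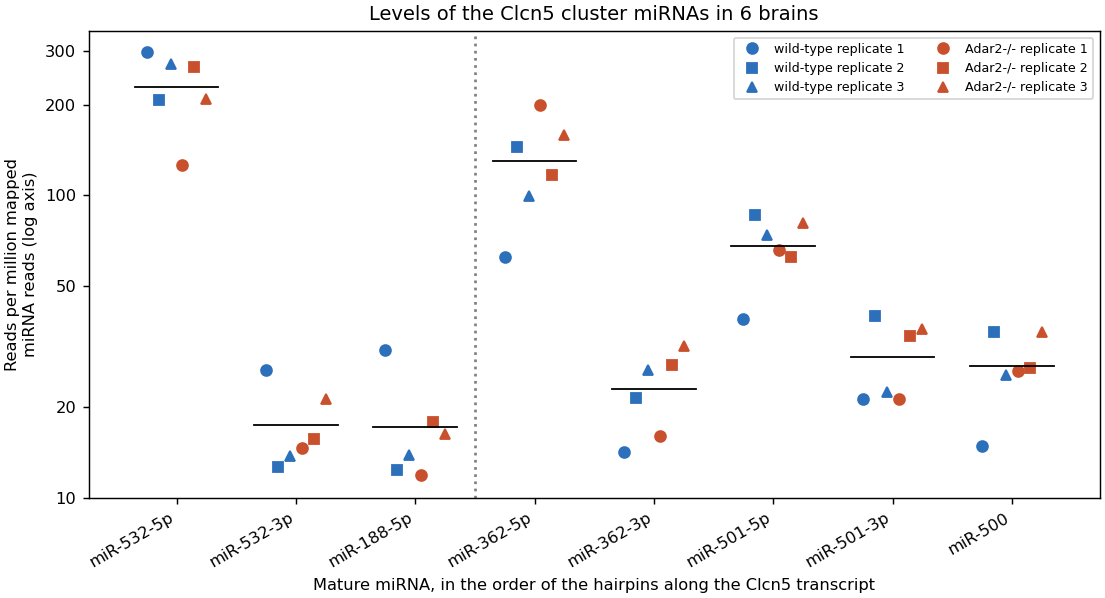
RPM of the 8 members in every library on a log axis, ordered by hairpin along the transcript, with wild type in blue, Adar2-/- in red, symbols for replicate numbers and a line at the mean of 6 libraries. The dotted line marks the gap of 5942 bp, left of which wild-type replicate 1 is the highest library of each member and right of which it is the lowest.

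Level did not follow position in a simple order. By geometric mean over the 6 libraries the members ranked miR-532-5p (221 RPM), miR-362-5p (122 RPM), miR-501-5p (66.1 RPM), miR-501-3p (28.1 RPM), miR-500 (26.3 RPM), miR-362-3p (21.9 RPM), miR-532-3p (16.7 RPM) and miR-188-5p (16.2 RPM), a span of 13.7-fold. The 5p strands of Mir532, Mir362 and Mir501 thus held the top 3 places, in the order of their hairpins, and the 5p strand of Mir188 the last. Neighbours in this ranking were compared within each library by a two-sided exact sign-flip permutation test, whose smallest p with 6 libraries is 0.03125, with Benjamini-Hochberg adjustment over 7 comparisons. Since the ranking came from the same values, the tests describe how firm it was. miR-362-5p exceeded miR-501-5p in 6 of 6 libraries, by 1.85-fold (exact p = 0.03125, adjusted 0.109). miR-501-5p exceeded miR-501-3p in 6 of 6 libraries, by 2.35-fold, with the same p-values.

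The other 5 neighbours kept their order in only 3 to 5 of the 6 libraries, with exact permutation p-values from 0.125 to 0.656. miR-532-5p was above miR-362-5p in 5 of 6 libraries, the exception being Adar2-/- replicate 1 with 126 against 199 RPM. miR-501-3p, miR-500 and miR-362-3p were not separated from each other beyond their spread, nor were miR-532-3p and miR-188-5p, which differed by 1.03-fold on average. Levels of different miRNAs also carry the efficiency of ligation and PCR for each sequence, so the order is one of reads.

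Within each of the 3 hairpins with both strands among the members, the 5p strand outnumbered the 3p strand in all 6 libraries. For Mir532 the 5p strand had 11.2, 16.5 and 19.8 times the reads of the 3p strand in the wild-type brains and 8.63, 17.0 and 9.84 times in the mutants. For Mir362 this ratio was 4.41, 6.76 and 3.77 in wild type and 12.5, 4.27 and 5.02 in Adar2-/-. For Mir501 it was 1.85, 2.16 and 3.31 in wild type and 3.13, 1.82 and 2.25 in Adar2-/-. Among these 3 hairpins the bias toward the 5p strand was strongest at Mir532, 13.2-fold by geometric mean, and weaker at Mir362 (5.58-fold) and Mir501 (2.35-fold). An exception to the order was Adar2-/- replicate 1, in which Mir362 had a higher ratio than Mir532. The order is not a gradient along the transcript. Mir188, which lies between Mir532 and Mir362, had a ratio of only 2.67 to 4.76.

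The arm ratios did not separate the genotypes. The mean log2 ratio in Adar2-/- minus wild type was -0.45 for Mir532, 0.42 for Mir362 and -0.014 for Mir501, with two-sided exact permutation p-values of 0.3, 0.6 and 0.9 and adjusted values of 0.90 for each over 3 hairpins. With 3 libraries against 3 the smallest p is 0.1. The difference at Mir362 rested on Adar2-/- replicate 1 and became -0.060 without it, and that at Mir501 took either sign when single libraries were left out, from -0.22 to 0.23. Genotypes overlapped in all 3 hairpins, against 9.8% (10 of 102) of hairpins with both arms at 100 reads or more whose genotypes did not overlap. The SD of the log2 ratio over the 6 libraries was 0.49, 0.64 and 0.37 for Mir532, Mir362 and Mir501, where the 102 hairpins had a median of 0.57 and quartiles of 0.41 and 0.77.

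The remaining strands of the cluster were rarer and were not tested. miR-188-3p had 68 to 144 reads per library, and miR-188-5p exceeded it 2.67-fold to 4.76-fold. Its highest level, 11.6 RPM against 2.90 to 5.55 RPM elsewhere, was found in wild-type replicate 1, the library with the maximum of miR-188-5p as well. miR-500* had 2 to 15 reads, between 0.408% (95% Wilson interval 0.112 to 1.48) and 1.83% (1.11 to 3.00) of the reads of its hairpin. At this depth its share could not be compared between libraries.

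**Figure D3:**
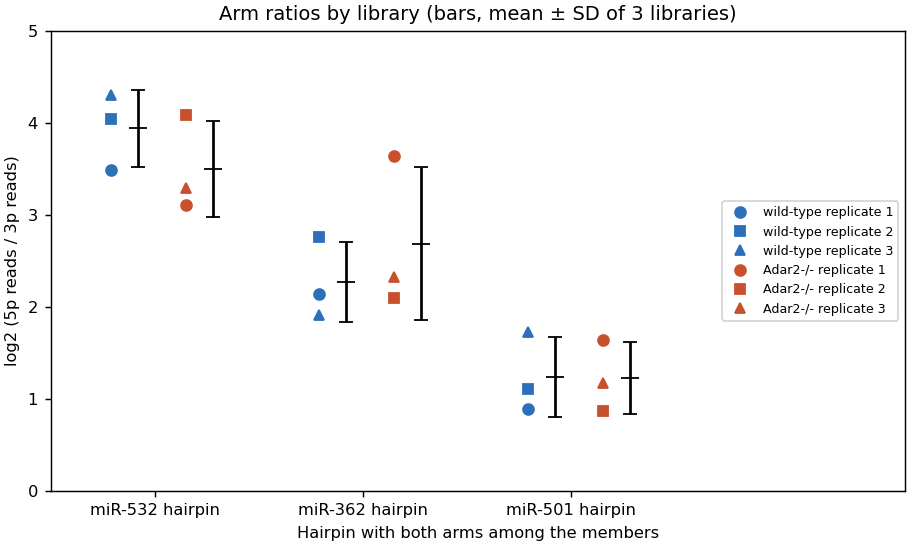
Log2 ratio of 5p to 3p reads for the 3 hairpins with both strands among the members, 1 point per library (blue, wild type; red, Adar2-/-), with mean ± SD of 3 libraries beside the points. All points are above 0, the means of the hairpins step down from Mir532 to Mir501, and the genotypes overlap in each.

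In wild-type replicate 1 the members deviated by their side of the longest gap. This library was the highest of the 6 libraries for the 3 members upstream of the 5942 bp gap and the lowest for the 5 members downstream of it. Relative to the median of the other 5 libraries it stood at 1.43-fold for miR-532-5p, 1.82-fold for miR-532-3p and 2.23-fold for miR-188-5p. Downstream it stood at 0.431 for miR-362-5p, 0.536 for miR-362-3p, 0.528 for miR-501-5p, 0.617 for miR-501-3p and 0.549 for miR-500. The untested miR-188-3p, also upstream, was at 2.63-fold. Over the 399 miRNAs tested this library was the highest for 27.1% and the lowest for 22.8%. For miR-501-3p the minimum was shared in practice with Adar2-/- replicate 1, since both rounded to 21.1 RPM.

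Reads from the 5 members downstream of the gap were 0.427 times those from the 3 upstream members in wild-type replicate 1. In the other libraries this ratio was 1.41 and 0.829 in wild-type replicates 2 and 3 and 2.15, 0.895 and 1.40 in the mutants. On the log2 scale the mean level upstream minus that downstream was 1.29 in wild-type replicate 1 and between -0.71 and -0.10 in the other 5, with wild-type replicate 2 at the lower end. In wild-type replicate 2 the deviation of every upstream member lay below that of every downstream member, the reverse of wild-type replicate 1. Adar2-/- minus wild type was -0.51 for this quantity, and 0.063 without wild-type replicate 1. Adar2-/- replicate 1 had the highest ratio of downstream to upstream reads, but there the strands of 1 side did not move together. It held miR-532-5p at 0.474 and miR-532-3p at 0.935 times the median of the other libraries, and miR-362-5p at 1.70 times. In that library miR-362-3p was at 0.604 times that median, opposite to its own 5p strand.

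The division at the gap was noticed in the values, so the comparison below describes the same values and is no test. The division depended on wild-type replicate 1. The SD over the 6 libraries of the log2 ratio of a member to the mean of the others on its own side had a median of 0.34, against 0.74 for the ratio to the mean of the other side, and 8 of 8 members were closer to their own side. Without wild-type replicate 1 the medians were 0.35 and 0.32, in the opposite order, although 6 of 8 members were closer to their own side. The tightest member was miR-500, whose ratio to the mean of its side had an SD of 0.10. Spearman's rho between hairpin GC content and the deviation of a library, across 329 miRNAs that are not independent replicates, ran from -0.13 to 0.16 and was 0.024 in wild-type replicate 1. The part of base composition, depth and the endocrine markers in the pattern was not tested.

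**Figure D4:**
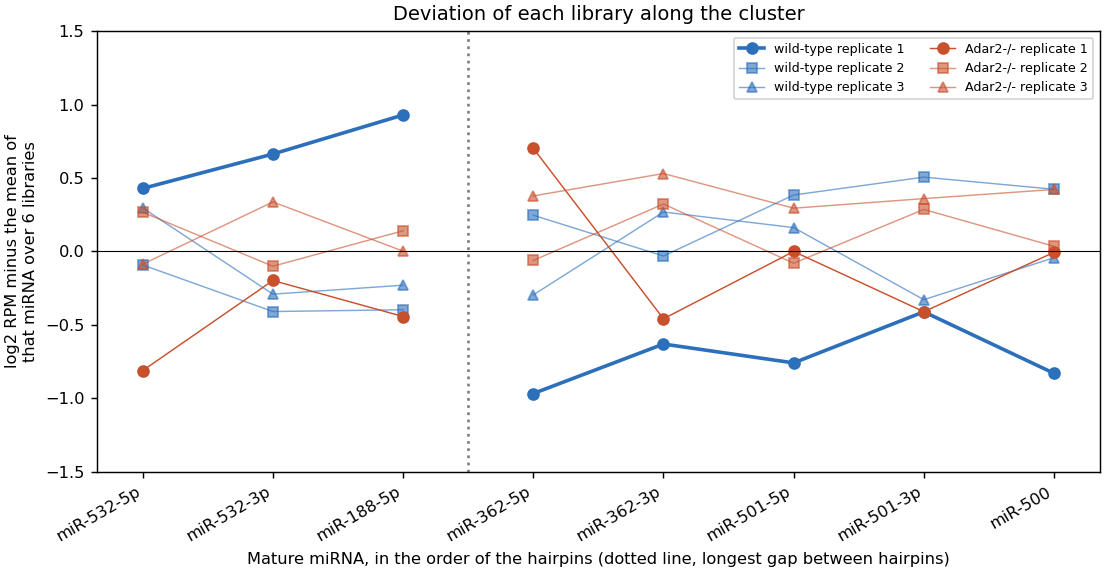
Log2 RPM of each member in each library minus the mean of that member over the 6 libraries (vertical axis), with members ordered along the transcript and the dotted line at the 5942 bp gap. Wild-type replicate 1 (thick blue line) runs from 0.43 to 0.93 upstream of the gap and from -0.97 to -0.41 downstream of it. In wild-type replicate 2 the step has the opposite sign, from -0.41 to -0.092 upstream and from -0.032 to 0.51 downstream.

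No difference between Adar2-/- and wild type passed the test for any member of the cluster. With edgeR's quasi-likelihood test and Benjamini-Hochberg adjustment over the 399 miRNAs, 0 of 8 members were called at 0.05, against 0.0% of all miRNAs tested. At an unadjusted p under 0.05 the count was also 0 of 8, against 3.26% (13 of 399), and DESeq2 called 0 of 8 members and 1 of 399 miRNAs by its adjusted p. The adjusted p-values of edgeR lay between 0.988 and 0.989. In RPM the genotypes overlapped for all 8 members, whereas 5.76% of the 399 miRNAs had genotypes that did not overlap. The two-sided exact permutation test on RPM gave p-values from 0.2 to 1.

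The largest estimate belonged to miR-362-5p, with 158 ± 40.8 RPM in Adar2-/- and 102 ± 41.3 RPM in wild type (SD, n = 3 each). Its log2 fold change was 0.63 (SE 0.38, 95% interval -0.22 to 1.47). The ratio of Adar2-/- to wild type within replicate numbers was 3.18, 0.808 and 1.60, so the direction was not shared by all 3. Without wild-type replicate 1 the log2 fold change was 0.37, and without both first replicates 0.17. miR-532-5p had the opposite sign, with 200 ± 70.4 RPM in Adar2-/- and 259 ± 46.4 RPM in wild type and a log2 fold change of -0.37 (SE 0.36, 95% interval -1.17 to 0.42). Within replicate numbers its ratio was 0.423, 1.28 and 0.767.

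Across the 8 members 5 estimates were positive, all downstream of the gap, and 3 were negative, all upstream. Their median was 0.10, against 0.0023 over the 399 miRNAs. This division by sign was not kept without wild-type replicate 1. The estimate for miR-532-3p was -0.036 with it and 0.38 without it, and that for miR-188-5p was -0.30 and 0.23. Downstream, miR-501-5p was at 0.072 with it and -0.20 without it, miR-501-3p at 0.13 and -0.030, and miR-500 at 0.22 and -0.045. Both strands of Mir362 stayed positive and miR-532-5p stayed negative. The lower limits of the 95% intervals ran from -1.22 to -0.22 and the upper limits from 0.42 to 1.47, so these libraries leave differences of such sizes possible.

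Only miR-362-3p lay in the same direction in all 3 replicate numbers, with Adar2-/- over wild type at 1.13, 1.28 and 1.20. That is 1 of 8 members, against 16.0% (64 of 399) of all miRNAs tested. The ratio of its means was 1.21, under the 1.3-fold below which the study did not consider consistent changes further. Thus 0 of 8 members had both 1 direction and a change of at least 1.3-fold, against 9.77% (39 of 399). The p-value limit that the study also set for its listed miRNAs was not applied to these counts. The log2 fold change of miR-362-3p was 0.27 (SE 0.38).

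**Figure D5:**
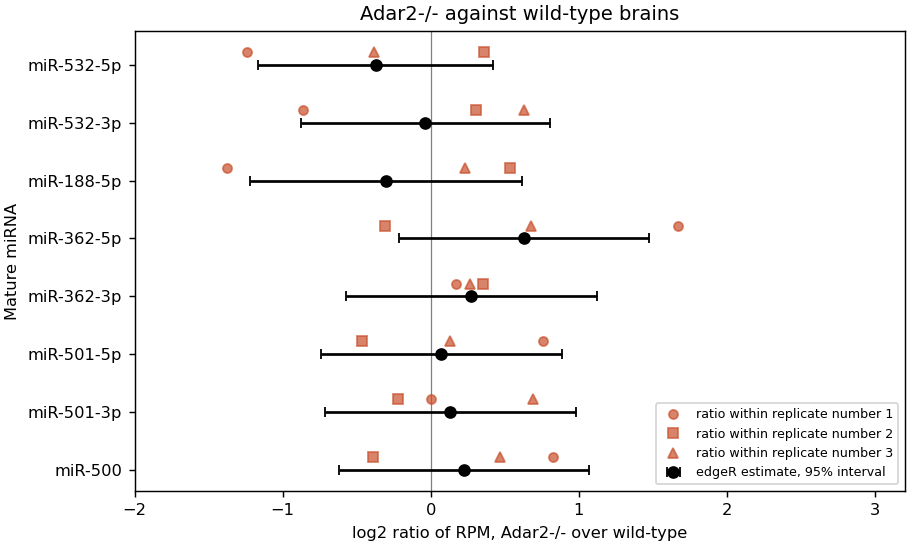
Log2 fold change of each member, Adar2-/- over wild type, as estimated by edgeR (black), and the log2 ratio of RPM within each replicate number (red symbols). Black bars are 95% intervals derived from the F statistic of the test. All 8 intervals include 0, and the 3 red symbols lie on 1 side of 0 for miR-362-3p alone.

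How closely the members tracked each other depended on wild-type replicate 1. For a member, the SD over the 6 libraries of the log2 ratio of its level to the mean of the other members ranged from 0.32 (miR-501-3p) to 0.66 (miR-188-5p), with a median of 0.46. For the 391 non-members tested, the same measure against the mean of the cluster had a median of 0.43, and 209 of them were at or under the median of the members. Without wild-type replicate 1 the median of the members was 0.27 and that of the non-members 0.39, and 101 of the 391 were at or under the median of the members. In the annotation 7 groups of miRNA genes, each within 50000 bp of the next, held at least 5 tested miRNAs. The other 6 had medians of 0.29 to 0.42, so the Clcn5 cluster had the widest spread of the 7. Without wild-type replicate 1 the medians of the other 6 ran from 0.22 to 0.40, and the Clcn5 cluster was no longer the widest.

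The non-members most like the mean of the cluster, by the SD of the log2 ratio over the 6 libraries, were miR-3068 (0.098), miR-32 (0.124), miR-20a (0.130), miR-146b (0.132) and miR-409-5p (0.133). Their mean levels ran from 24.1 RPM for miR-32 to 485 RPM for miR-146b. These SDs are lower than that of any single member, and they are drawn from 391 candidates. They are taken against the mean of all members, those of members against the mean of the other members. In wild-type replicate 1 the sides of the gap deviated oppositely, and the mean log2 RPM was 5.16, against 5.15 to 5.63 elsewhere. Likeness to that mean is thus not likeness to either side. Without wild-type replicate 1 they ran from 0.10 to 0.14.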

How the data were processed

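Small RNA libraries of 3 wild-type and 3 Adar2-/- brains were analysed. The authors removed adaptors with Cutadapt, mapped reads to miRBase 16 mature sequences with NextGenMap and deposited raw read counts in 3 tables. How weighted reads became whole numbers is not given in the sources used here. After dropping 12 blank lines, columns were assigned by genotype and replicate number. Counts were divided by total mapped miRNA reads and multiplied by 1000000 (RPM). miRNAs with 100 or more reads in all libraries entered the quasi-likelihood test (glmQLFit, glmQLFTest) of edgeR 4.0.16 under R 4.3.3, with totals as library sizes and neither scaling factor nor block. Other values were computed with Python 3.11.15 and scipy 1.17.1. The edgeR test was tried on simulated counts in which 200 of 399 miRNAs were changed. It called 27% of those changed 2-fold and 98% of those changed 4-fold, with 3 and 12 calls on unchanged miRNAs. In that simulation most 2-fold changes were thus missed. Benjamini-Hochberg adjustment is easier to pass where 200 of 399 miRNAs are changed than where few are. The shares called therefore do not carry over to a lone changed miRNA, also at 4-fold, and that case was not simulated. As alternatives DESeq2 1.42.0, TMM factors, library sizes lacking the 5 most abundant miRNAs, a minimum of 10 reads or none, a pseudocount of 0.5 in arm ratios, a replicate block, and omission of libraries or replicate numbers were run. The members, the marker lists and the tests were chosen with earlier results of these data known. Named are the members, other strands of their hairpins, the 5 most similar non-members and miRNAs sharing a seed. The arrays, blots, reporter assays and editing levels were not analysed here.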

Additional observations from a re-analysis of the deposited data

How the results depend on the processing

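No member was called under any of the 16 alternatives, with adjusted p-values of 0.412 to 1.00 over them, while the count over all miRNAs went from 0 to 1 with DESeq2 and to 0 to 18 with libraries left out (18 without replicate 1, where the median log2 fold change of all miRNAs was 0.17). The sign held throughout for miR-532-5p (-0.77 to -0.014), miR-362-5p (0.17 to 1.14) and miR-362-3p (0.065 to 0.51). It turned for miR-532-3p with the replicate block (0.032) and with the replicate block and TMM factors (0.031), and for miR-501-5p with DESeq2 (-0.0047). With libraries or replicate numbers left out, the log2 fold change ran from -0.37 to 0.48 for miR-532-3p, -0.66 to 0.38 for miR-188-5p, -0.20 to 0.38 for miR-501-5p, -0.14 to 0.49 for miR-501-3p and -0.045 to 0.61 for miR-500. The cause was not tested. Arm ratio differences ran from -0.74 to -0.25 for Mir532, -0.060 to 0.71 for Mir362 and -0.22 to 0.23 for Mir501. Members with genotypes apart numbered 0 to 3 with a library left out, 3 of 8 without wild-type replicate 2, against 20.8% of the 399 miRNAs there and 7.77% to 29.3% over the 6 omissions. Only miR-362-5p then had an edgeR unadjusted p under 0.05, without wild-type replicate 2 (5.01% of all miRNAs) and without replicate 2 (2.01%). Members with 1 direction in the remaining numbers were 3, 6 and 1 without replicates 1, 2 and 3, against 62.4%, 44.9% and 24.8% of all miRNAs. The median spread ran from 0.27 without wild-type replicate 1 to 0.51. The difference of upstream minus downstream level, 0.063 without that library, was added after seeing the data, as were the other comparisons of both sides, non-members or annotated clusters without it. Wild-type and Adar2-/- libraries of the same number correlated at -0.00103, -0.0756 and -0.0136 across 399 miRNAs, and those of different numbers at -0.0261 to 0.0727. Whether replicate numbers pair the libraries was not tested, and these values cannot decide it, as miRNAs within a library are not independent. The replicate block changed no call. Depth limits miR-500* above all, with 2 to 15 reads.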
